A study of Mus musculus with 15 samples.

Results

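The genes described are the protein-coding mouse genes whose symbol is Zfp followed by a number, or begins with Zkscan or Zscan, and whose level averaged at least 5 CPM (read counts scaled to a common library total) over all 15 libraries. They were thus chosen by their symbols and selected on that measured mean. There were 169 such members, namely 157 Zfp, 8 Zkscan and 4 Zscan genes, out of 394 protein-coding genes with these symbols, 52844 genes in all and 9583 protein-coding genes at 5 CPM or more. Another 225 genes of these names were under the threshold, and 16 of those had no count in any library. Since the level chose them, a level at or above the threshold is no finding. Just inside it stood Zfp799 at 5.04, Zfp612 at 5.12 and Zfp930 at 5.19 CPM, and just outside it Zfp820 and Zfp324 at 4.96 and Zfp788 at 4.9 CPM.

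The libraries were made from polyadenylated RNA of jejunal epithelial cells of CC027/GeniUnc mice, a Collaborative Cross strain, and were read as paired ends. Sensitized mice had received 2 mg of crude peanut extract into the stomach once a week for 3 weeks and 5 mg in week 4. In 3 groups such mice were then challenged with 12 mg of peanut by the same route, and cells were isolated 30, 60 or 120 min later. The unchallenged sensitized mice, called sensitized controls here, were the fourth group, and mice that had received PBS in place of peanut at every sensitization dose and no challenge were the fifth. Each group had 3 libraries, and nothing in the labels pairs them. The labels give neither the sex nor the age of the mice, and a challenge of PBS mice or a mock challenge of sensitized mice was not analysed here.

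Zinc finger proteins of the C2H2 kind fold short loops around a zinc ion, and arrays of such fingers read DNA sequence. Many carry a KRAB box at the amino end, which recruits Trim28 (KAP1) and, through it, the histone methyltransferase Setdb1 and HP1 proteins, and these repressors are known for silencing retroelements. A SCAN box lets such proteins pair with each other. The symbol Zfp was also given to proteins that share only a zinc-binding fold, among them binders of RNA and ubiquitin ligases.

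Not every member is known as a transcription factor. By a search of the coding sequences, 71 members carried a KRAB box, of which 11 also had a SCAN box, 8 had a SCAN box alone and 90 had neither. For 5 members, Zfp36, Zfp330, Zfp503, Zfp703 and Zfp839, no C2H2 finger was found by the pattern of cysteines and histidines searched. KRAB members held a median of 11 fingers, against 7.5 in members with neither box, and Zfp142 held the most, 37. Passing 5 CPM was also unequal between the kinds. Of 236 genes of the family with a KRAB box 30.1% were members, against 68.2% of 132 with neither box. Chromosome 7 held 35 members, 11 of them with a KRAB box, and chromosome 17 held 22 members, 18 of them with a KRAB box.

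Levels were compared between genes in TPM, which divides counts by transcript length and scales them to a common total. Most members were low. The median member had 4.43 TPM, against 12.0 TPM for all protein-coding genes at 5 CPM or more. By kind the median was 3.14 TPM for KRAB members, 4.79 TPM for members with a SCAN box and 5.14 TPM for members with neither. In counts, the median member had 12.8 CPM, 65 members were under 10 CPM and 13 were at 50 CPM or more.

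**Figure D1:**
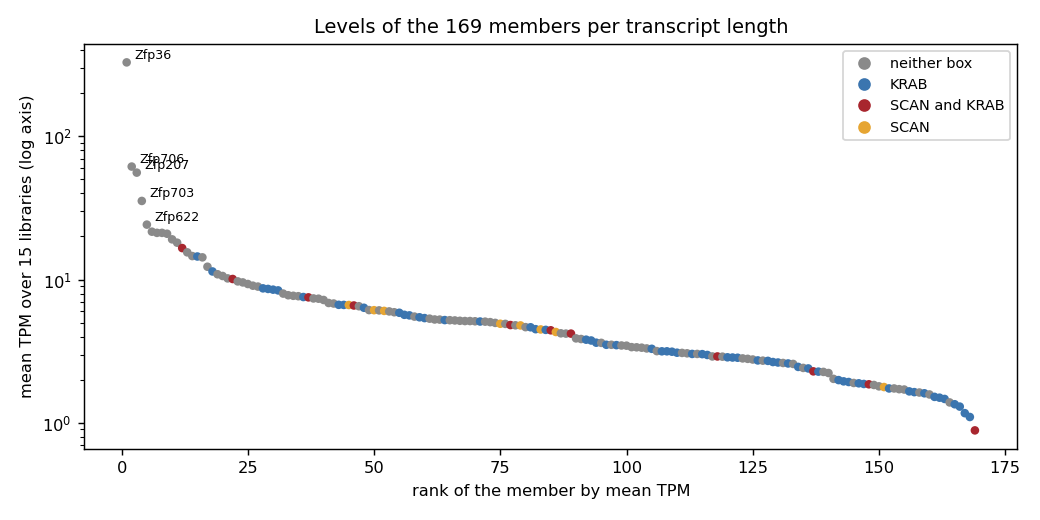
Mean TPM over the 15 libraries (log axis) of each of the 169 members, ranked from highest to lowest and coloured by the box found in the protein. Zfp36 stands at 328 TPM, 4 further members stand between 24.2 and 61.5 TPM, and the lowest member is at 0.887 TPM.

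Zfp36 was far above the rest of the members. It encodes tristetraprolin, a CCCH zinc finger protein that binds AU-rich elements in mRNA and promotes decay of cytokine and early-response transcripts. At 328 TPM it gave 23.7% of the summed TPM of all members. Zfp36 averaged 1107 ± 100 CPM in sensitized controls, 1051 ± 173 CPM at 30 min, 940 ± 154 CPM at 60 min, 1081 ± 126 CPM at 120 min and 1014 ± 169 CPM in PBS mice (SD, n = 3 each). The libraries of every group overlapped in range with those of every other group. The other members at the top likewise had neither box. Zfp706 followed at 61.5 TPM and was also the steadiest member, with an SD of 0.0802 in log2 CPM over the 15 libraries. Zfp207, which binds microtubules and serves spindle assembly, had 55.8 TPM. Zfp703, a transcriptional corepressor, had 35.4 TPM, and Zfp622, an assembly factor of the large ribosomal subunit, had 24.2 TPM. Zfp598, the ubiquitin ligase that marks collided ribosomes, had 21.6 TPM, Zfp655 and the RNA-binding protein Zfp106 had 21.2 TPM each, and Zfp91, a ubiquitin ligase in the NF-κB pathway, had 20.9 TPM.

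Among members with a known place in repression, Zfp445, which with Zfp57 guards imprinted genes in the mouse, had 16.6 TPM. It was among the 3 steadiest members (SD 0.129 in log2 CPM) and averaged 48.8 ± 6.24 CPM in sensitized controls, 48.4 ± 4.61 CPM at 30 min, 50.5 ± 3.87 CPM at 60 min, 49.2 ± 6.71 CPM at 120 min and 49.2 ± 3.71 CPM in PBS mice (SD, n = 3 each). Zfp57 itself was not a member. Zfp809, which recognises the primer binding site of murine leukaemia proviruses, had 14.5 TPM, and Zfp568, a repressor of a placental Igf2 transcript in the mouse, had 2.98 TPM. Activators were also present. Zfp410, which drives Chd4, had 14.6 TPM, Zfp148, a binder of GC-rich promoters, had 9.07 TPM, and Zfp143, which acts at promoters of small nuclear RNAs, had 4.91 TPM. Zfp592 and Zfp687, partners in a chromatin complex, had 10.6 and 7.66 TPM. Zfp638 had 10.2, Zfp326, a link between splicing and elongation, 9.32, Zfp217, a corepressor partner, 6.81, Zfp593 5.12 and Zfp451, a SUMO ligase, 3.08 TPM. Zfp318 had 1.8 and Zfp281 1.74 TPM. Of the SCAN members, Zkscan3 had 10.1, Zscan26 6.12, Zscan21 4.49 and Zkscan1 2.91 TPM. The most variable members were Zkscan7, Zfp462 and Zkscan8, with SDs of 0.567, 0.504 and 0.485 in log2 CPM, against a median SD of 0.254 over members and 0.233 over all protein-coding genes at 5 CPM or more.

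Libraries held 15661513 to 22691349 estimated counts, of which 13.76% to 33.24% came from mitochondrially encoded genes. Replicate 2 at 30 min stood apart for the members. In that library 149 of 169 members (88.2%) were above their own mean over the 15 libraries, against 54.2% of all protein-coding genes at 5 CPM or more. The other libraries had 34.9% to 65.1% of members above their own mean. Replicate 1 at 30 min held 252 CPM of 12 stromal and endothelial markers in sum, against 2.97 to 13.7 CPM in the other libraries. Replicate 3 at 60 min had the highest mitochondrial share.

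**Figure D2:**
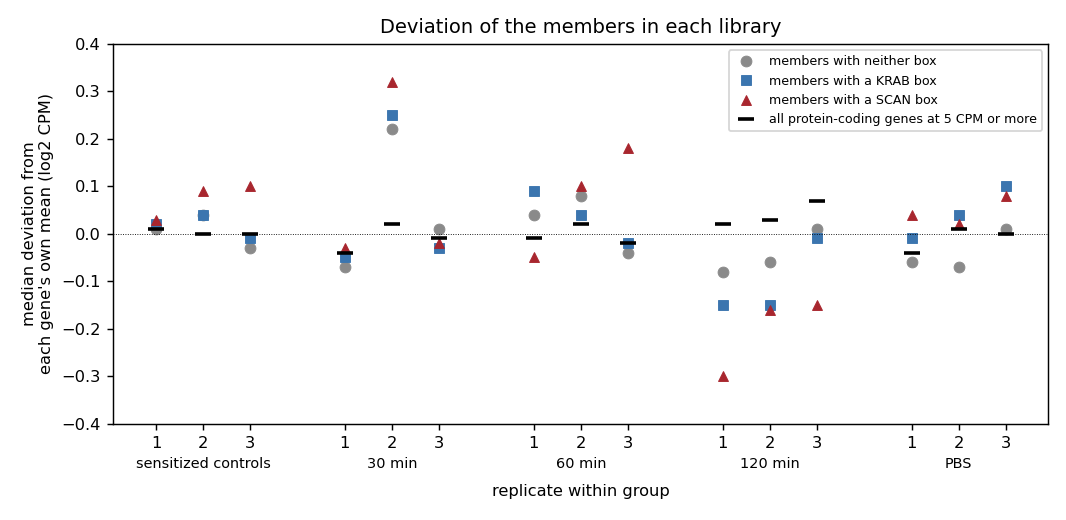
For each library (x axis, by group and replicate), the median over genes of the deviation in log2 CPM from each gene's own mean over all libraries. Members with neither box, with a KRAB box and with a SCAN box are circles, squares and triangles, and bars are all protein-coding genes at 5 CPM or more. Replicate 2 at 30 min has all 3 kinds at 0.22 or higher, and the 3 libraries at 120 min have members with a SCAN box at -0.15 or lower.

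Sensitized controls were set against PBS mice to ask whether sensitization alone altered these genes. By edgeR's quasi-likelihood test with Benjamini-Hochberg adjustment over 14968 genes, 0 members passed the threshold of an adjusted p under 0.05, and 0.0% of all genes did. At an unadjusted p under 0.05 there were also 0 members, against 1.42% of all genes. DESeq2 and limma-voom likewise called 0 members. The member of smallest p was Zfp622, with 89.2, 79.3 and 81.3 CPM in sensitized controls, against 67.7, 68.0 and 76.9 CPM in PBS mice. These libraries did not overlap, and the log2 difference was 0.23 (SE 0.12, adjusted p = 1.0). Zfp865, Zfp24, Zfp101, Zfp472 and Zfp516 came next, with log2 differences of 0.27, -0.36, -0.52, -0.46 and 0.24, each at an adjusted p of 1.0 by edgeR. These values rest on few libraries. Zfp101 had -0.06 without replicate 1 of the PBS mice, and -0.97 and -0.32 without replicates 1 and 3 of the sensitized controls. Zfp516 had 0.08 without replicate 2 of the sensitized controls and 0.14 without replicate 1 of the PBS mice. Zfp472 had -0.29 without replicate 3 and Zfp24 -0.23 without replicate 2 of the sensitized controls, and Zfp865 had 0.17 without replicate 2 of the PBS mice. When transcript length was corrected for, the sign of Zfp101 and Zfp516 turned, to 0.73 and -0.06, and Zfp472 had -0.10. Over the 169 members the median log2 difference was 0.02, against 0.01 for all genes tested.

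Each time after challenge was then set against the same 3 sensitized controls, so the comparisons share those libraries and are not independent of each other. At 30 min 0 members passed in edgeR, as did 0.0% of all genes, and DESeq2 and limma-voom called 0 members. Of 169 members 108 had a positive log2 fold change, with a median of 0.08, against 0.01 for all genes tested. Without replicate 2 at 30 min, the library in which most members were high, that median was -0.02. At an unadjusted p under 0.05 there were 6 members (3.55%), all positive, against 5.04% of all genes and 5.73% of all protein-coding genes at 5 CPM or more. Zfp629 had 12.5, 21.3 and 11.4 CPM at 30 min, against 11.1, 10.2 and 7.98 CPM in sensitized controls. The groups did not overlap, but replicate 2 alone stood well above the controls (log2 fold change 0.62, SE 0.21, adjusted p = 0.941). It was 0.29 without that replicate and 1.81 when transcript length was corrected for. Zfp358, Zfp553, Zfp24, Zfp398 and Zkscan17 followed at log2 fold changes of 0.60, 0.60, 0.46, 0.49 and 0.31, with adjusted p from 0.941 to 0.966 by edgeR. Without replicate 2 at 30 min Zfp553 had 0.28 and Zfp398 0.22. Against PBS mice, a control chosen after seeing the data, Zfp398 had 0.30 and Zfp24 0.11, and with the length correction Zfp24 had 0.26.

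At 60 min 0 members passed in edgeR, as against 0.00668% of all genes, which is 1 gene. At an unadjusted p under 0.05 there were 27 members, 20 of them higher at 60 min and 7 lower, that is 16.0% of members, against 12.6% of all genes and 16.7% of all protein-coding genes at 5 CPM or more. limma-voom called 0 members. DESeq2 called 8 (4.73%), all higher at 60 min, and 189 genes in all (1.26%). The 6 members of smallest p were all higher at 60 min in every library than in any sensitized control, and none passed. Zkscan17, which in the mouse binds the histone methyltransferase Nsd1, had 27.0, 29.4 and 29.4 CPM at 60 min, against 15.5, 20.0 and 17.5 CPM in sensitized controls. The 60 min libraries were also above all other libraries of the study, including those at 120 min with 16.2, 21.4 and 20.8 CPM. Its log2 fold change was 0.69 (SE 0.14, adjusted p = 0.175 by edgeR, n = 3 each).

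Zfp609, a partner of the cohesin loader and the Integrator complex, had 51.9, 59.5 and 70.9 CPM at 60 min, against 41.0, 39.2 and 32.4 CPM in sensitized controls. Its log2 fold change was 0.69 (SE 0.17, adjusted p = 0.175), and at 120 min it still had 47.1, 56.3 and 64.1 CPM, above all controls. Zfp646 had 44.6, 62.9 and 70.3 CPM at 60 min, against 35.0, 36.8 and 36.7 CPM in sensitized controls, with the 60 min libraries far apart from each other (log2 fold change 0.71, SE 0.17, adjusted p = 0.175). Zfp629 and Zfp628 had log2 fold changes of 0.91 (1.39 with the length correction) and 0.70 at the same adjusted p, and Zfp553 had 0.95 with an adjusted p of 0.208. With replicate 1 at 60 min left out, edgeR called 7 members (4.14%), all higher at 60 min, and 385 genes in all (2.5%).

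**Figure D3:**
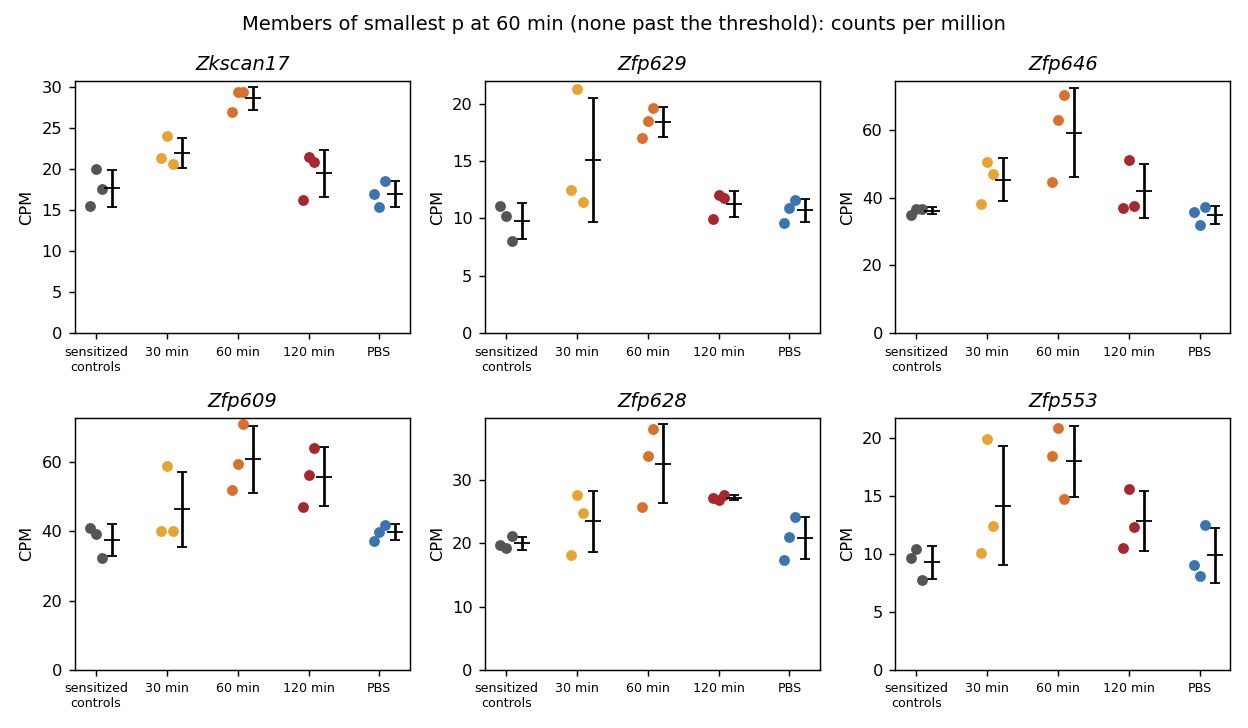
CPM (y axis) of the 6 members of smallest p at 60 min in every library, by group, with the group mean and SD as black bars (n = 3 each). In each of the 6, all 60 min libraries lie above all sensitized controls, and for Zfp629 and Zfp553 replicate 2 at 30 min is also high. None of these differences passed the threshold.

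At 120 min 6 members (3.55%) passed in edgeR, against 1.26% of all genes tested, of which 0.728% were higher and 0.528% lower, and 1.78% of all protein-coding genes at 5 CPM or more. At an unadjusted p under 0.05 there were 36 members (21.3%), 10 higher and 26 lower, against 17.7% of all genes and 21.0% of all protein-coding genes at 5 CPM or more. Zfp335 and Zfp91 rose, and Zkscan7, Zkscan3, Zfp467 and Zfp839 fell. In bulk RNA fewer cells of a type and less RNA per cell cannot be told apart. For Zfp335, Zfp91 and Zfp839 the promoter is printed because these are the called members with a RefSeq promoter entry at the start of their main transcript. Each window runs from 250 bases before to 50 bases after the start of transcription, 5′ to 3′ on the strand of the gene, from RefSeq on GRCm38.p6, with capitals at the motifs named after them.
Zfp335: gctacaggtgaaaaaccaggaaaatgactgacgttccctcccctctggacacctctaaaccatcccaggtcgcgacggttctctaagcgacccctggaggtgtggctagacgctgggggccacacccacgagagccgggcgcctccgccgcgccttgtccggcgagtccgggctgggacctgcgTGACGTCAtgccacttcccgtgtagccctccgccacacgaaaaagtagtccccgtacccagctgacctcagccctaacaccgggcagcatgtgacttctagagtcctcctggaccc
Zfp91: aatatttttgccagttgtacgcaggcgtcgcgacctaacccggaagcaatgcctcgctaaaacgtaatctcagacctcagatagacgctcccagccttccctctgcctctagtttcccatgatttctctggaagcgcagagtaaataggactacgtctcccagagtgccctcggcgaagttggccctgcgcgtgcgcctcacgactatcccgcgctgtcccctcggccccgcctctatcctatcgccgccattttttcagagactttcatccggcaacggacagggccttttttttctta
Zfp839: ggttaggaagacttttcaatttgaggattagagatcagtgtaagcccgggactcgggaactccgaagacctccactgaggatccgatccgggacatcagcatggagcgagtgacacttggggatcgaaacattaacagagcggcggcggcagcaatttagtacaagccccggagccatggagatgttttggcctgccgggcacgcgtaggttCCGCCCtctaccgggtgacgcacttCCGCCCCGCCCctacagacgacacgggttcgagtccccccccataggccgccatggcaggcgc
These lie at chr2:164911701-164912000 on the minus strand for Zfp335, chr19:12796074-12796373 on the minus strand for Zfp91 and chr12:110850029-110850328 on the plus strand for Zfp839. The 3 windows are rich in CG pairs, with 22, 24 and 24. On both strands 8 motifs were searched. The window of Zfp335 held 1 cAMP response element (TGACGTCA), which 1.79% of 32817 RefSeq promoter windows and 3.59% of 167 windows of 134 matched members hold. The window of Zfp839 held 3 GC boxes (GGGCGG), of which a pair shares a base, and 54.5% of member windows have at least 1, against 35.6% of all. Zfp91 held no motif of those searched. The rest were the CCAAT box (CCAAT, 44.3% of member windows against 37.4% of all), an ETS motif (CCGGAAGT, 11.4% against 3.89%), the NRF1 core (2.4% against 0.966%), a YY1 motif (AAGATGGC, 5.39% against 2.74%), the Zfp143 motif (1.2% against 0.286%) and the glucocorticoid response element (0.0% against 0.00914%). A match describes letters and not binding.

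Zfp335, on chromosome 2 (GRCm38, 164891882 to 164911757, minus strand), encodes a subunit of H3K4 methyltransferase complexes that mouse T cells and neural progenitors need. It had 62.0, 45.4 and 59.9 CPM at 120 min, against 35.6, 34.6 and 36.8 CPM in sensitized controls. The 9 libraries at 30 min, at 60 min and of PBS mice stood between 31.5 and 38.2 CPM, so the 3 libraries at 120 min were above all 12 others. The log2 fold change was 0.64 (SE 0.12, adjusted p = 0.029 by edgeR, n = 3 each). The gene overlaps Pcif1 on the opposite strand, which averaged 44.1 CPM, and the sources used here do not say whether reads were assigned by strand.

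Zfp91, on chromosome 19 (12763660 to 12796126, minus strand), had 165, 184 and 196 CPM at 120 min, against 121, 114 and 121 CPM in sensitized controls. All 3 were above every control, and the 60 min libraries, with 139, 159 and 191 CPM, also stood above the controls. The log2 fold change at 120 min was 0.61 (SE 0.12, adjusted p = 0.0297 by edgeR). It shares its strand and part of its length with Cntf, which averaged 0.532 CPM.

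Zkscan7, on chromosome 9 (122885685 to 122898618), carries a SCAN box and 10 fingers. It fell to 2.92, 4.53 and 3.15 CPM at 120 min, against 9.12, 8.78 and 7.7 CPM in sensitized controls. No library outside the 120 min group was under 6.94 CPM. The log2 fold change of -1.27 (SE 0.22, adjusted p = 0.017 by edgeR) was the largest in size of any member, on 62 to 189 estimated counts per library. Both coding transcripts with enough counts were lower at 120 min, in sums not scaled for depth: Zkscan7-201 had 191 estimated counts over the 3 libraries at 120 min, against 383 over the sensitized controls, and Zkscan7-202 had 26, against 67.

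Zkscan3, on chromosome 13 (21387003 to 21402755), has both boxes and is known from human cells as a repressor of autophagy and lysosome genes. It had 16.3, 16.0 and 15.5 CPM at 120 min, against 30.0, 28.4 and 25.9 CPM in sensitized controls. The 120 min libraries differed by under 1 CPM from each other and were below all other libraries, the lowest of which had 21.6 CPM. The log2 fold change was -0.82 (SE 0.15, adjusted p = 0.02 by edgeR). The transcripts of the gene did not move alike. Zkscan3-203 had 81 estimated counts over the 3 libraries at 120 min, against 492 over the sensitized controls, whereas Zkscan3-207 had 311, against 301. Reads shared by transcripts were divided among them by estimation, so such splits are uncertain.

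Zfp467, on chromosome 6 (48427697 to 48445825), is known in the mouse for steering marrow stromal cells between fat and bone fates. It had 3.48, 3.68 and 4.42 CPM at 120 min, against 7.23, 8.78 and 7.7 CPM in sensitized controls. The groups did not overlap, and the 60 min libraries, at 6.3, 6.66 and 5.13 CPM, stood between them. The log2 fold change at 120 min was -1.03 (SE 0.20, adjusted p = 0.029 by edgeR). Zfp839, on chromosome 12 (110850253 to 110869996), had 5.32, 5.01 and 5.0 CPM at 120 min, against 8.56, 9.69 and 7.91 CPM in sensitized controls. All 12 other libraries were at 7.82 CPM or more. The log2 fold change was -0.77 (SE 0.18, adjusted p = 0.0482), the adjusted p nearest the threshold.

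**Figure D4:**
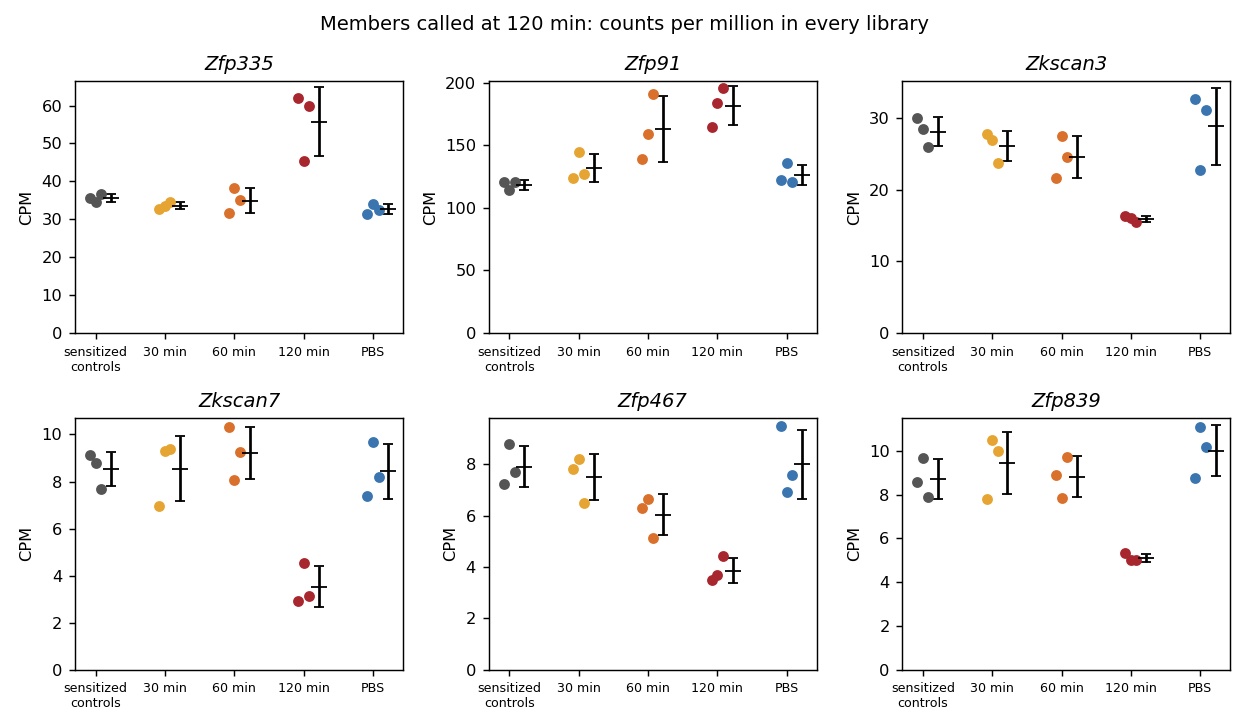
CPM (y axis) of the 6 members called at 120 min in every library, by group, with the group mean and SD as black bars (n = 3 each). Zfp335 and Zfp91 are higher in all 120 min libraries than in all sensitized controls, and Zkscan3, Zkscan7, Zfp467 and Zfp839 are lower.

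The count of 6 rests on few libraries. Without replicate 1 or replicate 3 at 120 min, or without any 1 of the sensitized controls, 0 members passed, and 7 to 16 genes passed in all. DESeq2 called 12 members (7.1%) with all libraries, the 6 among them, and 815 genes in all (5.44%). With transcript length corrected for, 1 member (0.592%) and 0.227% of all genes passed, and with only the 2 groups fitted, 3 members (1.78%) and 0.976% of all genes. The fold changes themselves moved little over the alternatives, from -1.50 to -1.17 for Zkscan7, from -0.88 to -0.64 for Zkscan3 and from 0.54 to 0.77 for Zfp335.

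More members were separated at 120 min than passed. In 60 members (35.5%) the 120 min libraries did not overlap the sensitized controls, 20 higher and 40 lower, against 26.5% of all genes tested and 30.6% of all protein-coding genes at 5 CPM or more. At 60 min this held for 35 members (20.7%, against 18.5% of all genes and 22.5% of those protein-coding genes). At 30 min it held for 20 (11.8%, against 14.3% and 17.1%) and between sensitized controls and PBS mice for 9 (5.33%, against 7.98% and 7.64%). At 120 min 99 of 169 members had a negative log2 fold change, with a median of -0.08, against -0.01 for all genes tested and 0.04 for all protein-coding genes at 5 CPM or more. The negative shares were 58.6% of members, 50.7% of all genes and 43.6% of those protein-coding genes. Neither set was matched to the members in level. Protein-coding genes tested under 5 CPM had a median of -0.29, with 67.3% negative.

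By box, the medians at 120 min were -0.28 for the 19 members with a SCAN box, of which 13 were negative and 2 passed. They were -0.13 for the 71 with a KRAB box (11 of them counted in both), of which 46 were negative and 1 passed, and -0.05 for the 90 with neither, of which 48 were negative and 4 passed. The negative shares were 68.4%, 64.8% and 53.3% in that order, against 50.7% of all genes tested and 43.6% of all protein-coding genes at 5 CPM or more. Of all genes tested 1.26% passed, and of those protein-coding genes 1.78%. The difference between the kinds was not tested. Zkscan5, named here after its values were seen, stood just outside the threshold. It had 5.23, 5.44 and 6.26 CPM at 120 min, against 11.5, 9.59 and 9.39 CPM in sensitized controls, with no overlap (log2 fold change -0.85, SE 0.20, adjusted p = 0.0514 by edgeR). The other 6 SCAN members had positive values. Zfp24 had 20.7, 20.8 and 19.6 CPM at 120 min, against 17.6, 11.8 and 14.3 CPM in sensitized controls, with no overlap (log2 fold change 0.48, SE 0.20, adjusted p = 0.215 by edgeR). Zscan25, named after its values were seen, had a log2 fold change of 0.29, Zkscan17, the member of smallest p at 60 min, 0.14, Zscan21 0.06, and Zkscan1 and Zfp445 0.01 each.

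**Figure D5:**
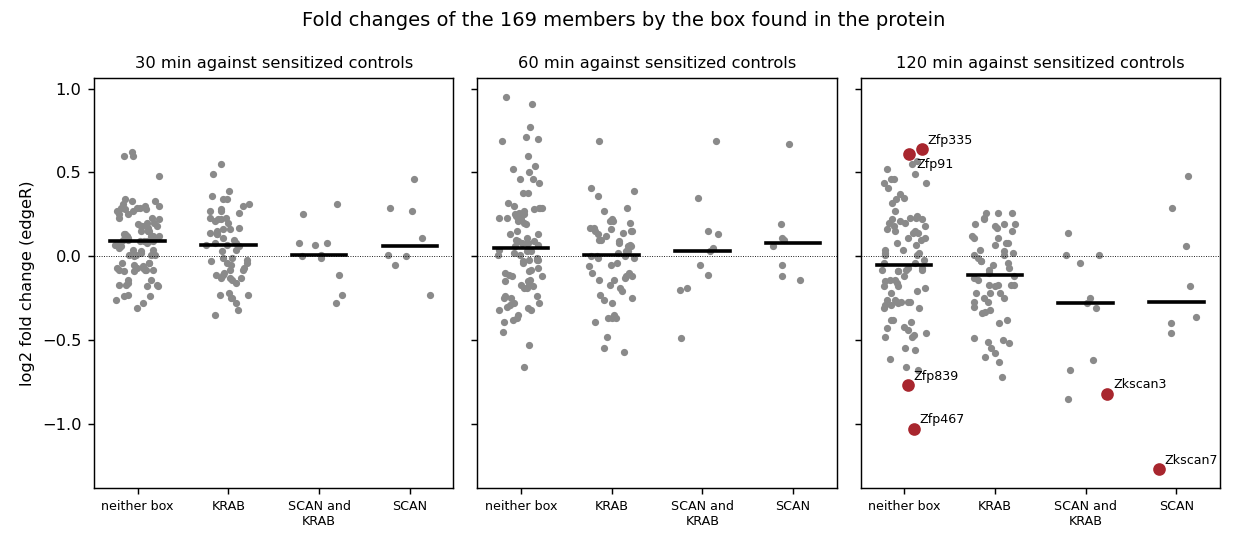
Log2 fold change (y axis) of each of the 169 members at 30, 60 and 120 min against the sensitized controls, by the box found in the protein (11 members with both boxes are shown on their own), with the median as a black line. Members past the threshold are large red points with names. All 6 lie in the 120 min panel, where the medians of the kinds with a SCAN box are -0.28 and -0.27.

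Times were also set against each other, without the sensitized controls. At 60 min against 30 min 0 members passed in edgeR, as did 0.0% of all genes, with 9 members (5.33%, against 4.46% of all genes and 4.57% of all protein-coding genes at 5 CPM or more) at an unadjusted p under 0.05 and 0 called by DESeq2 or limma-voom. Zfp810, Zfp97, Zfp628, Zkscan17, Zfp609 and Zfp91 had the smallest p, with log2 differences of -0.70, -0.59, 0.47, 0.38, 0.39 and 0.30 and adjusted p of 0.863. Zfp609 had 0.61 without replicate 2 at 30 min, and Zfp91 0.17 without replicate 3 at 60 min. At 120 min against 30 min 5 members (2.96%) passed, against 1.01% of all genes (0.595% higher and 0.414% lower) and 1.39% of all protein-coding genes at 5 CPM or more. At an unadjusted p under 0.05 the shares were 19.5% of members and 19.4% of those protein-coding genes. The members past the threshold were Zfp335, higher at 120 min by 0.73 (SE 0.12, adjusted p = 0.0241), and Zkscan7, Zkscan3, Zfp467 and Zfp839, lower with log2 differences of -1.27, -0.71, -0.96 and -0.88 and adjusted p from 0.0241 to 0.042. At 120 min against 60 min 3 members (1.78%) passed, against 1.12% of all genes (0.588% higher and 0.534% lower) and 1.62% of all protein-coding genes at 5 CPM or more. At an unadjusted p under 0.05 there were 38 members (22.5%), against 19.7% of all genes and 25.0% of those protein-coding genes. Zkscan7 and Zfp839 were lower with log2 differences of -1.38 and -0.79 (adjusted p = 0.019 and 0.0476), and Zfp335 was higher by 0.67 (adjusted p = 0.0235). Zkscan3, Zfp598 and Zfp395 came next and did not pass, with log2 differences of -0.62, 0.48 and -0.73 and adjusted p from 0.0534 to 0.0608. Zfp598 had 121, 104 and 124 CPM at 120 min, against 90.3, 88.0 and 71.5 CPM at 60 min. With the 3 times tested jointly against the sensitized controls, 3 members (1.78%) passed (Zkscan7, Zkscan3 and Zfp335), against 0.521% of all genes and 0.751% of all protein-coding genes at 5 CPM or more. Some of these counts rest on single libraries. Leaving out replicate 1 or replicate 3 at 120 min brought all 3 counts to 0, with 0 to 37 genes called in all. The count of 120 min against 30 min was also 0 without replicate 2 of the sensitized controls, with 11 genes in all. It was 1 without replicate 1 or 3 at 30 min (15 and 52 genes in all). It was 2 without replicate 2 at 30 min (59 genes), replicate 2 at 60 min (31), replicate 1 or 3 of the sensitized controls (52 and 63) or replicate 3 of the PBS mice (52), and 3 without replicate 2 at 120 min (67). The count of 120 min against 60 min was 0 without replicate 2 or 3 at 60 min, with 2 genes in all each time, and 5 (2.96%) without replicate 2 at 30 min, with 169 genes in all (1.09%). It was 6 (3.55%) without replicate 2 at 120 min, with 298 genes in all (1.93%), and 19 (11.2%) without replicate 1 at 60 min, with 1151 genes in all (7.46%). The joint count was 0 without any 1 of the sensitized controls, with 12 to 20 genes in all, and 8 (4.73%) without replicate 1 at 60 min, with 356 genes in all (2.31%).

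The partners that KRAB proteins recruit were read from a list of 32 genes, all tested. It also holds other genes of repressive chromatin, such as DNA methyltransferases. None passed at 30, 60 or 120 min. Of the 32, 28, 26 and 23 were positive at 30, 60 and 120 min, with median log2 fold changes of 0.19, 0.17 and 0.14, against 0.01, -0.02 and -0.01 for all genes tested. Their summed level was 1729 to 1784 CPM in sensitized controls, 1836 to 2120 CPM at 30 min, 1972 to 2100 CPM at 60 min, 1883 to 2199 CPM at 120 min and 1643 to 1845 CPM in PBS mice. The challenged libraries thus all lay above the sensitized controls. Trim28, the scaffold that KRAB boxes bind, had 208, 208 and 232 CPM at 120 min, against 167, 164 and 147 CPM in sensitized controls. That log2 fold change was 0.44 (SE 0.12, adjusted p = 0.0889 by edgeR), which did not pass. Resf1, which supports Setdb1, had 78.0, 73.1 and 57.1 CPM at 120 min, against 45.1, 46.4 and 43.6 CPM in sensitized controls (log2 fold change 0.62, SE 0.16, adjusted p = 0.065). Not all of the list lay higher. Setdb1 itself, given here after its values were seen, had 31.8, 30.1 and 41.5 CPM at 120 min, against 34.0, 38.6 and 37.6 CPM in sensitized controls. The groups overlapped, at a log2 fold change of -0.09. Chd3, a helicase of the NuRD complex named after its values were seen, had 118, 91.8 and 70.6 CPM at 120 min, against 135, 121 and 141 CPM in sensitized controls, with no overlap. Its log2 fold changes were -0.60, -0.60 and -0.50 at 30, 60 and 120 min, with adjusted p of 0.941, 0.254 and 0.177. The smallest p at 60 min belonged to Atrx and Chd4, with log2 fold changes of 0.39 and 0.50 and adjusted p of 0.175 and 0.19.

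For the company of Zfp36, a list of 14 of its relatives and of mRNAs it is known to destabilise had 12 tested genes, and 0 passed at any time. Their median log2 fold changes were -0.09, -0.30 and -0.12 at 30, 60 and 120 min. Zfp36l1, its paralogue, had 118, 89.5 and 132 CPM at 120 min, against 122, 147 and 180 CPM in sensitized controls, with overlap (log2 fold change -0.40, adjusted p = 0.253 by edgeR). Of 23 immediate early genes and 19 tested Klf and Sp factors, another C2H2 family, 0 passed against sensitized controls at any of the 3 times. The medians of the immediate early genes were -0.10, -0.34 and -0.14 at 30, 60 and 120 min, with 19 of the 23 negative at 60 min, and those of the Klf and Sp factors were -0.03, -0.07 and -0.04. At 120 min against 60 min 1 immediate early gene passed, Myc, with 30.3, 25.7 and 45.7 CPM at 120 min, against 19.2, 20.2 and 11.3 CPM at 60 min (log2 difference 1.0, SE 0.21, adjusted p = 0.0386 by edgeR).

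Several lists of markers of other cells differed at 120 min from the sensitized controls, and some also did at earlier times. Summed levels were 33.4 to 92.9 CPM at 120 min for 16 T cell markers, against 97.4 to 339 CPM in sensitized controls. At 30 and 60 min they were 53.5 to 324 and 59.6 to 207 CPM. For 9 B and plasma cell markers the sums were 142 to 480 CPM at 120 min, against 1077 to 1685 CPM. At 30 and 60 min they were 658 to 2373 and 1523 to 1661 CPM. For 11 goblet cell markers the sums were 7679 to 8449 CPM at 120 min, against 10109 to 16441 CPM. At 30 and 60 min they were 8243 to 12797 and 8074 to 12146 CPM. Erythroid markers, 5 in all, summed to 77.5 to 87.3 CPM at 120 min, against 125 to 179 CPM in sensitized controls. Their sums were 18.9 to 54.3 CPM at 30 min and 14.2 to 139 CPM at 60 min. The 8 mast cell markers, of which 3 were tested, summed to 19.1 to 25.2 CPM at 120 min, against 27.9 to 46.9 CPM in sensitized controls. Their sums were 30.9 to 47.7 CPM at 30 min and 30.8 to 61.6 CPM at 60 min. The 11 markers of epithelial identity summed to 14217 to 14382 CPM at 120 min, against 12585 to 12915 CPM in sensitized controls. They did not all go the same way: 7 had a positive log2 fold change and 4 a negative one, with a median of 0.17. Among the 11, Cdx1, an intestinal homeobox factor, passed at 120 min against sensitized controls, with 164, 142 and 192 CPM, against 116, 124 and 102 CPM (log2 fold change 0.54, SE 0.12, adjusted p = 0.0435 by edgeR). Cdx1 also passed against 30 and 60 min, and Krt20 against 60 min. The 11 Paneth cell markers summed to 5482 to 10352 CPM at 30 min, 7533 to 8813 CPM at 60 min and 2358 to 5049 CPM at 120 min, against 4671 to 5847 CPM in sensitized controls. Of the 10 tested, 0 passed against sensitized controls, and 5 were called lower at 120 min against 30 min and 5 against 60 min, with median log2 differences of -1.34 and -1.24. Lgr5, a stem cell marker, was also lower at 120 min than at 60 min (log2 difference -1.09, SE 0.25, adjusted p = 0.0476 by edgeR). The 20 proliferation markers of crypt cells summed to 749 to 1076 CPM at 30 min, 879 to 933 CPM at 60 min and 765 to 1153 CPM at 120 min, each above the 587 to 721 CPM of the sensitized controls. PBS mice had 711 to 830 CPM, which overlapped 30 and 120 min. Of the 20, 19 were lower in sensitized controls than in PBS mice (median log2 difference -0.28). PBS sums for T cell, B and plasma cell and goblet markers were 211 to 250, 845 to 2928 and 9072 to 19097 CPM. Erythroid, mast cell, epithelial identity and Paneth sums there were 74.3 to 169, 25.0 to 56.9, 11712 to 13075 and 5391 to 8934 CPM. Some other lists overlapped the sensitized controls at 120 min. The sums were 47.1 to 63.2 against 41.5 to 63.1 CPM for 10 macrophage and dendritic cell markers. For 11 stem cell markers they were 1020 to 1488 against 854 to 1449 CPM. The 12 stromal and endothelial markers had 3.74 to 5.74 against 5.06 to 7.7 CPM. The 10 enteroendocrine markers had 80.6 to 169 against 159 to 198 CPM, with 8 of the 10 negative and a median log2 fold change of -0.52. At 60 min all 10 were negative, with a median of -0.42, and 0 of them passed at either time. For 20 brush border and villus markers the sums were 22741 to 34239 against 20311 to 29645 CPM. This last list was not level at all times, with 16605 to 18725 CPM at 30 min and 14936 to 24988 CPM at 60 min. PBS mice had 13989 to 29938 CPM of it. At 30 min all 20 were lower than in sensitized controls, with a median log2 fold change of -0.52. At 120 min against 30 min 19 of the 20 were positive, with a median of 0.52. In both comparisons 0 of them passed. No marker of these lists was at 0 in every library, and none of the tested markers of T, B, goblet, mast, erythroid or proliferating cells passed at 120 min against sensitized controls, 30 min or 60 min. Their part in the changes of the members was not tested.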

How the data were processed

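The submitters' processing notes name cutadapt 1.18, Salmon 1.2.1 and the build mm10, and the sources used here give neither the annotation release nor the strand setting. The deposited tables give, per the file headers, an estimated count and a TPM per transcript, made by the authors; the other deposited columns, length and effective length in bases, served only for a length correction. Transcripts were summed to GENCODE M21 genes (137943 of 139058 IDs matched) and counts were rounded. Membership used CPM on library totals; levels by group are CPM scaled by TMM. All 15 libraries were fitted in 1 model with edgeR 4.0.16 (filterByExpr, which kept 14968 genes and all 169 members, robust quasi-likelihood, 10 residual degrees of freedom) in R 4.3.3. The threshold was an adjusted p (Benjamini-Hochberg) of 0.05. Alternatives used DESeq2 1.42.0, limma 3.58.1, other scalings, filters, a mitochondrial covariate and libraries left out. Fingers were counted, and KRAB and SCAN boxes found with HMMER 3.4 (E value 0.001), in GENCODE coding sequences, since a RefSeq protein table was not used here; scripts were tested on simulated data. Members, lists and tests were chosen with earlier results of these data known. Named members are those past the threshold, or the 6 of smallest p where fewer than 5 passed, a fixed set of known members, the 8 highest by TPM, those nearest the membership threshold, and list genes past the threshold or up to 2 of smallest p. The titles number the libraries differently, so they were taken as 15 mice; nothing states separate handling, so p-values measure the spread between these libraries, which may be partly technical. TPM carries no depth and was not tested.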

Additional observations from a re-analysis of the deposited data

Results flagged for a closer look

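Several members differed between the times after challenge by a test of that difference itself (edgeR's quasi-likelihood test, Benjamini-Hochberg adjusted over all genes). At 120 min against 30 min, Zfp335 was higher with a log2 difference of 0.73, and Zkscan7, Zfp467, Zfp839 and Zkscan3 were lower with -1.27, -0.96, -0.88 and -0.71. At 120 min against 60 min, Zfp335 was higher with 0.67, and Zkscan7 and Zfp839 were lower with -1.38 and -0.79. In each of these comparisons the 3 libraries at 120 min did not overlap the 3 of the earlier time. These members were picked by the same comparisons, so this is no separate evidence. Against 30 min 2.96% of members and 1.01% of all genes passed, and 21.9% and 22.3% did not overlap. Against 60 min 1.78% of members and 1.12% of all genes passed, and 21.9% and 20.0% did not overlap.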

How the results depend on the processing

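No paired analysis was possible because the replicate numbers were given in accession order and pair nothing. Of 1002 recomputed fold changes of named members, 838 kept their direction and side of the threshold, 131 lost the threshold, 31 gained it and 2 reversed, both for sensitized controls against PBS mice with the length correction: Zfp101 at 0.73 and Zfp516 at -0.064. Many of the 1002 belonged to members that had not passed at first and so could not lose the threshold. Of those past it at 120 min against sensitized controls, Zfp839 stayed past it in 9 of 25 alternatives and Zfp91 in 15. Zfp335 and Zfp467 did so in 18 each, Zkscan3 in 19 and Zkscan7 in 20 of 25. Counts of members also moved, and the causes were not tested. At 120 min against sensitized controls the count of 6 (3.55% of members, against 1.26% of all genes) became 12 with DESeq2 (7.1%, against 5.44%), 1 with the length correction (0.592%, against 0.227%) and 3 with only the compared groups fitted (1.78%, against 0.976%). With membership at 10 CPM it was 3 of 104 (2.88%). For that setting, here and below, the share of all genes at the same level was not computed. Against 30 min the 5 became 15 (8.88%, against 5.6%), 2 (of 169, against 0.214%), 0 (against 0.0286%) and 2 of 104 under the same settings in that order. Against 60 min the 3 became 19 (11.2%, against 6.29%), 1 (0.592%, against 0.307%), 0 (against 0.0% of all genes) and 1 of 104. It was 10 with upper quartile scaling (5.92%, against 1.34%), 7 with no filter (4.14%, against 0.969%) and 0 with the mitochondrial share as covariate (against 0.0267%). Jointly the 3 became 19 with DESeq2 (11.2%, against 6.75%), 10 with no filter (5.92%, against 1.34%) and 0 with the length correction (against 0.154%). At 60 min against sensitized controls the 0 became 8 with DESeq2 (4.73%, against 1.26%) and 4 with no filter (2.37%, against 0.17%). With 1 library left out the counts ran from 0 to 8 at 120 min, from 0 to 7 at 60 min, from 0 to 7 for 120 min against 30 min, from 0 to 19 for 120 min against 60 min and from 0 to 8 jointly. At 120 min the 8 came with 240 genes in all (1.56%) or 344 (2.24%), and at 60 min the 7 came with 385 (2.5%). The highest counts of the rest came with 241 genes in all (1.57%), 1151 (7.46%) and 356 (2.31%) in that order. Sensitized controls against PBS mice, 30 min, and 60 min against 30 min stayed at 0 in every setting. Using PBS mice as the control, chosen after seeing the data, gave 5 at 120 min, all among the 6 (176 genes in all). Scaling by totals without mitochondrial genes moved the median of all genes by -0.11 for 120 min against 30 min, to -0.12. Members near 5 CPM rest on few reads: Zkscan7 had 62 to 189 estimated counts per library.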

Other observations

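Genes of the same names under 5 CPM were not members, and 157 of them could be tested. At 120 min 123 of these were lower than in sensitized controls, which is 78.3%, against 67.3% of all 3461 protein-coding genes tested under 5 CPM. Their median log2 fold change was -0.37, against -0.29 for those protein-coding genes. At 60 min the medians were -0.06 and -0.04, and at 30 min 0.05 and 0.15. Of these genes 1 passed the threshold at 120 min by edgeR, which is 0.637%, against 0.318% of the protein-coding genes under 5 CPM. It was Zfp438, named after its values were seen, with 0.518, 0.906 and 0.451 CPM at 120 min, against 2.2, 3.34 and 1.7 CPM in sensitized controls (log2 fold change -1.95, SE 0.44, adjusted p = 0.0435), on 10 to 66 estimated counts per library.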
